A study of Mus musculus with 10 samples.

Results

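The genes described here belong to the pathways of 3 prostanoids other than prostaglandin D: prostacyclin, thromboxane and prostaglandin F. The list holds no prostaglandin F synthase, and its phospholipase and transporters are not particular to these 3. They are 9 genes taken as a fixed list of symbols, out of 14321 genes tested. The rule that picks them uses no measured value, though the list was chosen with earlier results of these data known. The members are the synthases Ptgis and Tbxas1, the receptors Ptgir, Tbxa2r and Ptgfr, the receptor-associated protein gene Ptgfrn, the phospholipase gene Pla2g4a and the transporters Slco2a1 and Abcc4. All 9 are on the array, with 17 probe sets in all. Of these, 14 passed the filter on low values (a log2 value over 4 on at least 4 arrays) and entered the test, at least 1 for each gene. The other 3, namely 1440777_x_at and 1449828_at of Ptgfr and 1450032_at of Slco2a1, are given as values.

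Male C57BL/6 mice gave the aortas, and their total RNA was measured on 1-colour Affymetrix arrays. One genotype was wild type and the other was Ptgds-/-, which lacks lipocalin-type prostaglandin D synthase (L-PGDS); both were kept in groups on chow with equal hours of light and dark. The labels list 5 biological replicates of each genotype, and wild type replicate 2 was excluded by the submitters and has an empty column, so 4 wild type and 5 knockout arrays were compared. The labels give no age, substrain or litter, and do not say how the allele was made or whether it acts in every cell. All values are log2 expression, and every difference is knockout minus wild type with the standard error (SE) of limma's moderated fit and its p adjusted over all 26504 tested probe sets.

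Prostanoids are made when cytosolic phospholipase releases arachidonate from membranes and cyclooxygenases turn it into a common endoperoxide, prostaglandin H. That intermediate is then shared among the terminal synthases, so L-PGDS draws on the same substrate as prostacyclin synthase and thromboxane synthase. In arteries, prostacyclin acts through a receptor that raises cyclic AMP, relaxes smooth muscle and restrains platelets, while thromboxane and prostaglandin F act through receptors that raise calcium and contract smooth muscle.

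The sequence upstream of a gene's start is shown for the 3 prostanoid receptors, one for each branch, and for Slco2a1, whose probe sets varied together from array to array. RefSeq's table for GRCm38.p6 holds 11 windows for 8 of the 9 members and none for Ptgis, which was therefore not searched. Each line gives the 250 bases before an annotated start, 5′ to 3′ in the direction of the gene, in lower case with motif matches in capitals. Motifs were searched on both strands: the TATA box (TATAAA), the GC box (GGGCGG), the cyclic AMP response element (TGACGTCA), the AP-1 site (TGANTCA), the ETS core (CCGGAA) and the CArG box, the element bound by serum response factor.

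Ptgir, chr7:16906240-16906489, plus strand: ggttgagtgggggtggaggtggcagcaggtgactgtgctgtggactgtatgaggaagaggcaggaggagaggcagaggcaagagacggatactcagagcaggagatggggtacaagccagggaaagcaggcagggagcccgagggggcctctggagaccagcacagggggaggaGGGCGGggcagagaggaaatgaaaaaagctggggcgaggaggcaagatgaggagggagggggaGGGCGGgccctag

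Tbxa2r, first of 2 windows, chr10:81328018-81328267, plus strand: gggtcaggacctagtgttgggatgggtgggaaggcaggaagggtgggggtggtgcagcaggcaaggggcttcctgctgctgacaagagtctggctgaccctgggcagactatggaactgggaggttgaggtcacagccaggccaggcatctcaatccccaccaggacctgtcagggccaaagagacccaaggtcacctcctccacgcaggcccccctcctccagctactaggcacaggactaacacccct

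Ptgfr, chr3:151837529-151837778, minus strand: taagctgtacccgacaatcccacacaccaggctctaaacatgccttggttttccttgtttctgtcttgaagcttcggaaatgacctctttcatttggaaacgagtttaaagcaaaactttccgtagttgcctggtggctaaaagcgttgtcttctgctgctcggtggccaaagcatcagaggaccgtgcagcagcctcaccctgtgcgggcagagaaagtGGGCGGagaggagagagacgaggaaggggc

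Slco2a1, chr9:103008237-103008486, plus strand: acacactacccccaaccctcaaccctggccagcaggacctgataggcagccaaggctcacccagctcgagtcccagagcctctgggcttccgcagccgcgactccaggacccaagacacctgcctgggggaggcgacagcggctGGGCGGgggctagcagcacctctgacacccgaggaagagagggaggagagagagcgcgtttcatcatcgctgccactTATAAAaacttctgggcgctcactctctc

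Ptgir held 2 GC boxes, from 76 to 71 and from 13 to 8 bases before the start. Ptgfr held 1, from 30 to 25 bases before it. Slco2a1 held a TATA box from 29 to 24 bases before the start and a GC box from 106 to 101 bases before it. In both windows of Tbxa2r these 6 motifs had 0 matches. Among the members not printed, Tbxas1 held 2 overlapping TATA boxes and 1 AP-1 site, Ptgfrn 1 GC box, the first window of Abcc4 3 GC boxes, and the second window of Pla2g4a 1 TATA box. Over all 32851 windows of this length, 32.7% held a GC box, 12.4% a TATA box, 12.0% an ETS core, 6.75% an AP-1 site, 1.55% a cyclic AMP response element and 1.47% a CArG box. The 4 printed windows differed in base composition, with 63.6% G and C in Ptgir, 62.4% in Tbxa2r, 52.0% in Ptgfr and 63.2% in Slco2a1, against a median of 52.4% over all windows. A match describes these letters and is not a measured site.

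Across the 9 genes, 0 of 14 tested probe sets passed an adjusted p of 0.05 in limma, where 0.0792% of all tested probe sets did (21 of 26504). An unadjusted p under 0.05 was reached by 1 of 14 member probe sets (7.14%), against 18.9% of all. The wild type and knockout values did not overlap for 0 of the 14, against 6.42% of all tested probe sets. Knockout means were higher for 8 of the 14 and lower for 6, and the median difference was 0.028 beside 0.011 over all tested probe sets. Leaving out 1 array moved the count over all probe sets to between 6 and 1673, the latter without wild type replicate 1, and 6 others (wild type replicates 4 and 5, knockout replicates 1, 2, 3 and 5) gave 6 or 7 when left out. The count of members past the test was 0 in each of these. Differences ran from −0.39 (Slco2a1) to 0.36 (Ptgir), and adjusted p-values from 0.18 to 0.938. The widest 95% interval, that of Ptgfr 1453924_a_at, ran from −0.65 to 0.89, so it does not exclude a change of up to 1.85-fold upward.

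**Figure D1:**
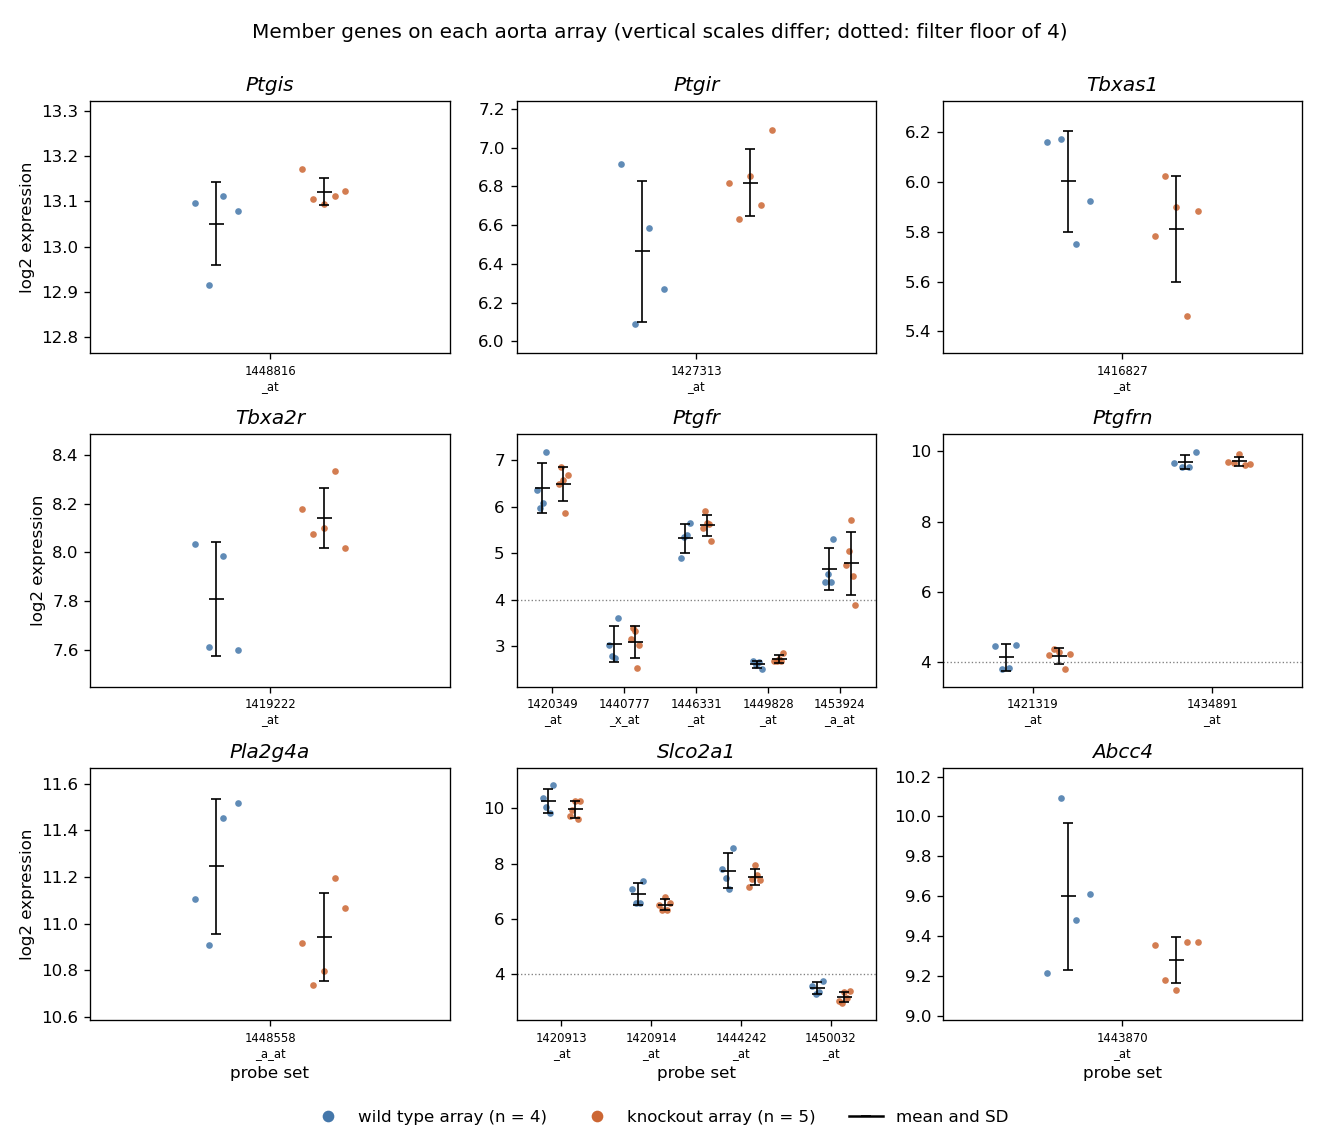
Log2 expression of every probe set of the 9 genes on each array, with 4 wild type (blue) and 5 knockout (orange) arrays and the mean and SD in black; vertical scales differ between panels and the dotted line marks the filter floor of 4. None of the 17 probe sets separates the groups. Among the 14 tested, Tbxa2r comes closest, with knockout arrays from 8.02 to 8.33 and wild type arrays from 7.60 to 8.03. The groups of Ptgfr 1449828_at, below the floor, only touch, at 2.68.

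The arrays themselves were alike in scale, with medians from 5.88 to 5.97 and a mean correlation with the other arrays of 0.983 (wild type replicate 3) to 0.992. The deleted gene was lower in every knockout array: probe set 1423859_a_at of Ptgds stood at 8.68 to 10.31 in wild type and 3.67 to 4.40 in knockout aortas (−5.30, SE 0.31, adjusted p 0.00060, limma). A second probe set, 1423860_at, also separated the groups, at 4.87 to 6.97 and 3.92 to 4.35, but did not pass (−1.80, SE 0.34, adjusted p 0.0892, limma). Smooth muscle markers were high, with Acta2 at 13.91 ± 0.039 (SD, n = 4) in wild type. Neuron markers set 2 arrays apart, with a mean over 7 genes of 11.13 on wild type replicate 3 and 9.34 on knockout replicate 1 against 4.24 to 7.61 on the other 7. Skeletal muscle markers set knockout replicate 3 apart, at a mean of 9.68 against 4.08 to 4.58 on the other 8. In a whole vessel, fewer cells of a type and less RNA per cell cannot be told apart.

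The 2 terminal synthases did not differ past the test. Ptgis encodes prostacyclin synthase, a cytochrome P450 that isomerises prostaglandin H into prostacyclin. It stood at 13.10, 12.91, 13.11 and 13.08 on wild type replicates 1, 3, 4 and 5, and at 13.17, 13.11, 13.09, 13.11 and 13.12 on knockout replicates 1 to 5. All knockout values lay within 0.076 of one another, and wild type replicate 3 was the lowest of the 9 arrays. The difference was 0.071 (SE 0.061, adjusted p 0.557, limma), with an interval from −0.066 to 0.21. It was 0.026 without wild type replicate 3. This is the narrowest interval of the 14. It excludes a change in the array value of more than 1.15-fold in either direction before any adjustment for the number of tests. Ptgis was the brightest of the members, and how fully the array value follows the RNA at this level was not tested.

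Tbxas1 encodes thromboxane synthase, the related P450 of platelets and macrophages. It stood at 6.16, 6.17, 5.75 and 5.92 in wild type and at 5.78, 6.02, 5.90, 5.46 and 5.88 in the knockout. Knockout replicate 4 was the lowest array, and the other 4 knockout values lay inside the wild type range. The difference was −0.19 (SE 0.13, interval −0.48 to 0.10, adjusted p 0.451, limma). It was −0.10 without knockout replicate 4, −0.11 with the smooth muscle marker mean as a covariate and −0.036 with the endothelial marker mean, the last added after seeing the data. Macrophage markers, 8 of 8 lower in the knockout with 0 past the test, had a mean of 8.90 to 10.00 on wild type and 9.05 to 9.38 on knockout arrays. Of 7 platelet markers 6 were tested, 5 higher and 1 lower, and their mean ran from 6.01 to 6.21 and from 5.96 to 6.63. The platelet integrin gene Itga2b stood at 6.16 and 6.31 in the 2 genotypes. The part of either cell type in the values of Tbxas1 was not tested.

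The receptors of prostacyclin and thromboxane, which act against each other in vessels, both lay higher in the knockout, and neither passed. Tbxa2r, the thromboxane receptor, stood at 8.03, 7.61, 7.99 and 7.60 in wild type and at 8.18, 8.08, 8.10, 8.33 and 8.02 in the knockout. Only wild type replicate 1 and knockout replicate 5 kept the groups from separating. The means were 7.81 ± 0.23 (SD, n = 4) and 8.14 ± 0.12 (SD, n = 5), a difference of 0.33 (SE 0.11), or 1.26-fold. Its adjusted p was 0.18 in limma, with an unadjusted interval from 0.077 to 0.59, and the exact two-sided permutation p over the 126 ways to place the arrays was 0.016, unadjusted. The adjusted p stayed above 0.05 with any 1 array left out, at its lowest 0.070 without wild type replicate 1, and with the mean of the smooth muscle markers as a covariate the difference was 0.23 (adjusted p 0.342). With the endothelial marker mean, an alternative added after seeing the data, it was 0.19 (adjusted p 0.607).

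Ptgir, the prostacyclin receptor, stood at 6.92, 6.09, 6.58 and 6.27 in wild type and at 6.82, 6.63, 6.85, 6.71 and 7.09 in the knockout. Wild type replicate 1 lay above all but 1 of the knockout arrays, and the other 3 wild type arrays lay below all 5. The difference was 0.36 (SE 0.16, 1.28-fold, interval −0.015 to 0.73), with an adjusted p of 0.282 (limma) and an exact permutation p of 0.119. It was 0.51 without wild type replicate 1 (adjusted p 0.065) and 0.23 without wild type replicate 3 (adjusted p 0.511). With the adipocyte marker mean as a covariate it was 0.20 (adjusted p 0.639), and with the smooth muscle marker mean 0.23 (adjusted p 0.531). Smooth muscle markers were higher in 6 of 8 genes, with a mean of 12.09 to 12.27 on wild type and 12.14 to 12.33 on knockout arrays, and 0 passed.

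The balance between the prostacyclin and thromboxane branches was read on each array as the log2 difference between 2 probe sets, a measure chosen after the values had been seen. Its size depends on the probes, so only its shift between genotypes can be read. Ptgir minus Tbxa2r was −1.34 ± 0.17 (SD, n = 4) in wild type and −1.32 ± 0.26 (SD, n = 5) in the knockout, a shift of 0.022 (exact permutation p 0.889). Ptgis minus Tbxas1 was 7.05 ± 0.27 (SD, n = 4) and 7.31 ± 0.22 (SD, n = 5), a shift of 0.26 (exact permutation p 0.159). The smallest p that 4 against 5 arrays allow is 0.0079.

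**Figure D2:**
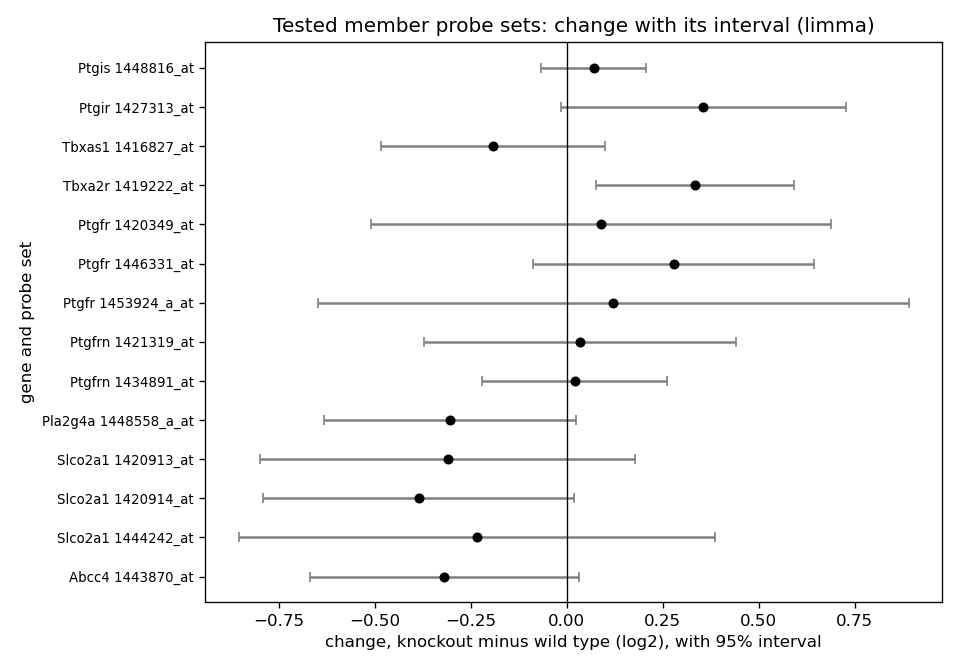
Difference in log2 expression, knockout minus wild type, of the 14 tested member probe sets, each with its 95% interval from limma before adjustment. The interval of Tbxa2r, from 0.077 to 0.59, is the only one of the 14 clear of 0, and its adjusted p over all probe sets is 0.18.

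Prostaglandin F signalling was represented by Ptgfr, its receptor, and Ptgfrn, an immunoglobulin superfamily membrane protein first named for lowering ligand binding to that receptor and found with tetraspanins. The brightest probe set of Ptgfr, 1420349_at, stood at 6.35, 5.98, 6.08 and 7.17 in wild type and at 6.48, 6.84, 6.56, 5.87 and 6.67 in the knockout. Wild type replicate 5 was the highest and knockout replicate 4 the lowest array, so the extremes fell on opposite sides. Its difference was 0.089 (SE 0.27, interval −0.51 to 0.69, adjusted p 0.885, limma). The other tested probe sets of the gene gave 0.28 (1446331_at, SE 0.16, adjusted p 0.383) and 0.12 (1453924_a_at, SE 0.34, adjusted p 0.879). With 1 array left out, 1446331_at ran from 0.14 (without wild type replicate 1) to 0.39 (without wild type replicate 5).

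The probe sets of Ptgfr did not vary alike. Deviations from the genotype means correlated at 0.94 (Pearson's r over 9 arrays) between 1420349_at and 1440777_x_at, though the latter lay between 2.54 and 3.62, below the floor. Between 1420349_at and the other 2 tested probe sets r was 0.32 and 0.44. Probe set 1449828_at lay between 2.51 and 2.86 on all arrays and ran against the others, with r from −0.81 to −0.23. Probe sets of one gene share the RNA of each array and are not replicates, so these values describe the probes.

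Ptgfrn showed the second narrowest interval of the 14 on 1434891_at, which stood at 9.68, 9.54, 9.56 and 9.98 in wild type and at 9.71, 9.67, 9.93, 9.61 and 9.63 in the knockout. Both groups spanned nearly the same range, and wild type replicate 5 and knockout replicate 3 were the high arrays. The difference was 0.021 (SE 0.11, interval −0.22 to 0.26, adjusted p 0.936, limma). The dimmer probe set, 1421319_at, ran from 3.80 to 4.50 and from 3.81 to 4.37, with a difference of 0.035 (SE 0.18, adjusted p 0.938), and the sign of both reversed when single arrays were left out.

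Pla2g4a, the cytosolic phospholipase that releases arachidonate, stood at 11.11, 10.91, 11.46 and 11.52 in wild type and at 10.92, 10.74, 10.80, 11.20 and 11.07 in the knockout. Wild type replicates 4 and 5 lay above all knockout arrays, and replicates 1 and 3 lay among them. The difference was −0.30 (SE 0.15, 1.23-fold lower, interval −0.63 to 0.024), with an adjusted p of 0.296 in limma. With 1 array left out it ranged from −0.42 without wild type replicate 3 to −0.21 without wild type replicate 5. Over all alternatives the lowest difference was −0.45, and the lowest adjusted p was 0.102 (limma).

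Slco2a1 encodes the prostaglandin transporter, which takes prostanoids up from outside the cell for breakdown. Its brightest probe set, 1420913_at, stood at 10.38, 10.04, 9.85 and 10.84 in wild type and at 9.72, 9.95, 10.27, 9.63 and 10.28 in the knockout. Wild type replicate 5 was the highest array and knockout replicate 4 the lowest. The differences were −0.31 (SE 0.22, adjusted p 0.466) on this probe set, −0.39 (SE 0.18, adjusted p 0.285) on 1420914_at and −0.23 (SE 0.28, adjusted p 0.678) on 1444242_at, all in limma. The fourth, 1450032_at, lay below the floor, from 3.30 to 3.77 in wild type and from 2.98 to 3.41 in the knockout. Unlike those of Ptgfr, all 4 probe sets varied together, with r of deviations from 0.73 to 0.89 in the 6 pairs. With probe sets of the other members, r ran from −0.54 (1420913_at and Tbxa2r 1419222_at) to 0.90 (1420914_at and Ptgfrn 1434891_at). It was 0.83 between 1420913_at and Ptgfr 1420349_at, so likeness of this size was not particular to Slco2a1.

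The values of Slco2a1 moved with those of endothelial markers, and wild type replicate 5 weighed on both. Without wild type replicate 5 the change was −0.12 on 1420913_at, −0.23 on 1420914_at and 0.046 on 1444242_at. The mean of 8 endothelial markers was 9.51, 9.34, 9.14 and 9.65 on the wild type arrays and 8.94, 9.14, 9.26, 9.02 and 9.23 on the knockout arrays, highest on the same array. That array was also the highest for the fibroblast, macrophage and adipocyte marker means, at 11.69, 10.00 and 11.70. Within each genotype the fibroblast and macrophage means were lowest on replicate 4, as was 1420913_at. The pattern is thus not particular to endothelial markers, and these 2 means were not used as covariates. All 8 markers were lower in the knockout with 0 past the test, among them Cdh5 (VE-cadherin) at −0.34 (adjusted p 0.134, limma), Emcn (endomucin) at −0.50 (adjusted p 0.178) and Nos3 (endothelial nitric oxide synthase) at −0.45 (adjusted p 0.236). With this mean as a covariate, also added after seeing the data, the 3 tested probe sets stood at 0.27, 0.032 and 0.45 (adjusted p 0.408, 0.944 and 0.420), turning the sign of each.

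**Figure D3:**
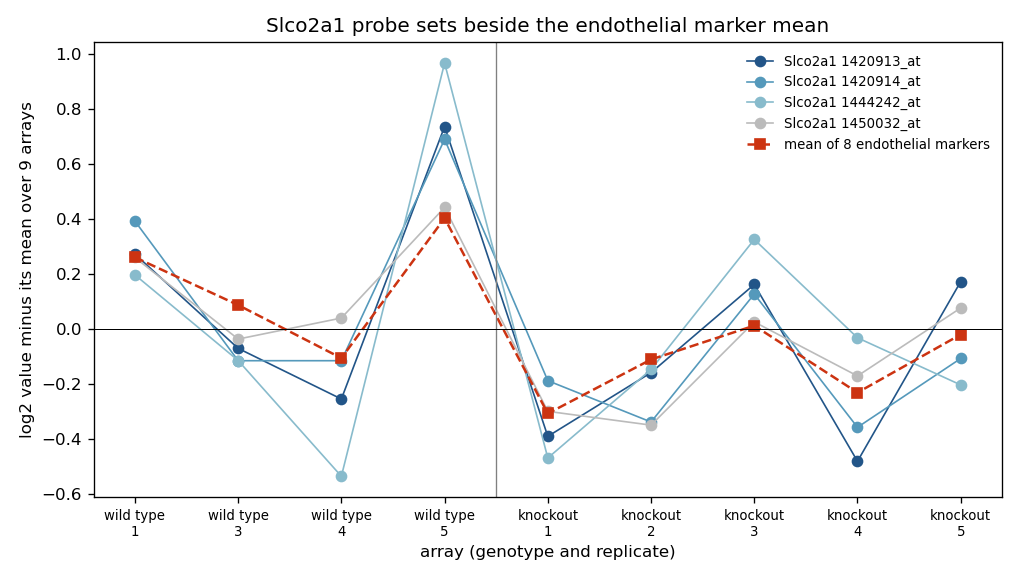
Log2 value minus its own mean over the 9 arrays for the 4 probe sets of Slco2a1 (circles) and for the mean of 8 endothelial markers (red squares, dashed), by array. Wild type replicate 5 is the highest array for all 5 lines, at 10.84 for probe set 1420913_at and 9.65 for the marker mean before centring.

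Abcc4 encodes a membrane pump that exports cyclic nucleotides and prostanoids. It stood at 9.22, 10.09, 9.48 and 9.61 in wild type and at 9.36, 9.18, 9.13, 9.37 and 9.37 in the knockout. Wild type replicate 3, the array richest in neuron transcripts, was the highest, and wild type replicate 1 lay inside the knockout range. Knockout replicate 1, the other array set apart by neuron markers, stood at 9.36 and not above knockout replicates 4 and 5. The difference was −0.32 (SE 0.16, 1.25-fold lower, interval −0.67 to 0.032), with an adjusted p of 0.304 in limma. It was −0.15 without wild type replicate 3 (adjusted p 0.525), −0.45 without wild type replicate 1 (adjusted p 0.097) and −0.23 with the neuron marker mean as a covariate (adjusted p 0.457), the last added after seeing the data.

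For each member the 2 genes most like it were found among 14320 others by Pearson's r of deviations from the genotype means over the 9 arrays. The arrays share their RNA between genes, and the values are a description with no test. Slco2a1 was nearest to Ptprb, a receptor tyrosine phosphatase of endothelium (r 0.99, Spearman's rank correlation 0.93, r 0.98 without the 2 arrays farthest from the median), and to Armh4 (r 0.99). Ptgir was nearest to Arhgef17 and Fbxo32, a muscle ubiquitin ligase (both r 0.98). Ptgis was nearest to Tor1b (r 0.98) and Tmem215 (r 0.97), and Tbxa2r to Mpped2 and Dock5 (both r 0.96). Abcc4 was nearest to Coro2b (r 0.98) and Fscn1 (fascin, an actin bundling protein, r 0.97), and Ptgfr to Enpp3 (r 0.98) and Ccbe1 (r 0.96). Tbxas1 was nearest to Decr2 (r 0.96) and Fnbp1 (r 0.95), and Pla2g4a to Tbc1d25 and Kdm6a (both r 0.97). Ptgfrn had the least stable match, Dntt, whose r was 0.95 and only 0.35 without the 2 farthest arrays, followed by Ctsk (cathepsin K, r 0.95).

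Around the members, 5 lists of pathway genes held 96 genes, of which 87 were named on the array and 82 tested by their brightest probe set. Of these, 38 had a higher and 44 a lower mean in knockout aortas, with a median of −0.011 beside 0.027 over all 14321 tested genes. Ptgds alone passed. An unadjusted p under 0.05 was found for 16 genes (19.5%, 5 higher and 11 lower), close to the 18.9% of all probe sets. The groups did not overlap for 4 genes, Ptgds among them (4.88%, against 6.42% of all tested probe sets). Without wild type replicate 1, 6 of the 82 passed (7.32%), against 6.31% of all tested probe sets in the same fit. The shares over all count every tested probe set, while those of the pathway genes count 1 per gene.

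For the genes of arachidonate release and cyclooxygenases, 13 genes were tested, 6 higher and 7 lower, with a median of −0.034 and 0 past the test. Acsl4, which attaches arachidonate to coenzyme A, stood at 10.43, 10.71, 10.72 and 10.81 in wild type and at 10.41, 10.27, 10.31, 10.41 and 10.23 in the knockout, without overlap (−0.34, SE 0.087, adjusted p 0.132, limma). The phospholipase gene Pla2g4e stood at 0.50 (SE 0.15, adjusted p 0.151), and Pla2g7, which encodes the hydrolase of platelet-activating factor, at −0.76 (SE 0.26, adjusted p 0.183). The inducible cyclooxygenase gene Ptgs2 stood at −0.58 (adjusted p 0.323, limma). The other listed cyclooxygenase gene, Ptgs1, was not among the tested genes.

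Among 18 tested genes of other prostanoid synthases, receptors and inactivation, 8 lay higher and 10 lower, with a median of −0.013. Beside Ptgds, which passed, Ptgr1, a prostaglandin reductase, stood at 6.80, 6.25, 6.24 and 6.13 in wild type and at 6.87, 6.73, 6.92, 6.96 and 6.83 in the knockout. Only wild type replicate 1 reached into the knockout range, and the difference was 0.51 (SE 0.13, adjusted p 0.133, limma). In the fit without that array, in which 6.31% of all tested probe sets passed, Ptgr1 stood at 0.65 (adjusted p 0.00756, limma), and Acsl4 (adjusted p 0.0187) and Creb1 (adjusted p 0.0331) passed there too. Abcc1, an exporter of leukotrienes and related lipids, stood at 0.25 (SE 0.076, adjusted p 0.156).

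Downstream of the receptors, 22 tested genes of the cyclic AMP side gave 8 higher and 14 lower (median −0.043), and 24 coupling partners of the thromboxane and prostaglandin F receptors gave 12 and 12 (median −0.0019), with 0 past the test in either. On the cyclic AMP side, the phosphodiesterase gene Pde3b stood at −0.25 (SE 0.084, adjusted p 0.170, limma), the transcription factor gene Creb1 at 0.22 (SE 0.086, adjusted p 0.215) and the adenylyl cyclase gene Adcy4 at −0.21 (SE 0.088, adjusted p 0.238). Among the latter, the protein kinase C gene Prkce stood at 9.28, 9.37, 9.09 and 9.26 in wild type and at 8.97, 8.98, 8.75, 8.88 and 8.62 in the knockout, without overlap (−0.41, SE 0.094, adjusted p 0.111). Itpr2, an intracellular calcium channel gated by inositol trisphosphate, stood at −0.32 (SE 0.11, adjusted p 0.167), also without overlap, and Arhgef1 at 0.25 (SE 0.094, adjusted p 0.211). The G protein genes themselves stood near 0, with Gnas at −0.059, Gnaq at −0.034 and Gna11 at 0.10 (adjusted p 0.622, 0.808 and 0.474).

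The partners of Ptgfrn, with 5 tested genes, gave 4 higher and 1 lower (median 0.060) and 0 past the test. The cytochrome P450 reductase gene Por, listed as a partner of Ptgis and Tbxas1, was not among the tested genes. The tetraspanin genes Cd9 and Cd151 stood at 0.091 and 0.060 (adjusted p 0.559 and 0.595, limma), and Igsf3, another immunoglobulin superfamily gene, at 0.13 (adjusted p 0.407).

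**Figure D4:**
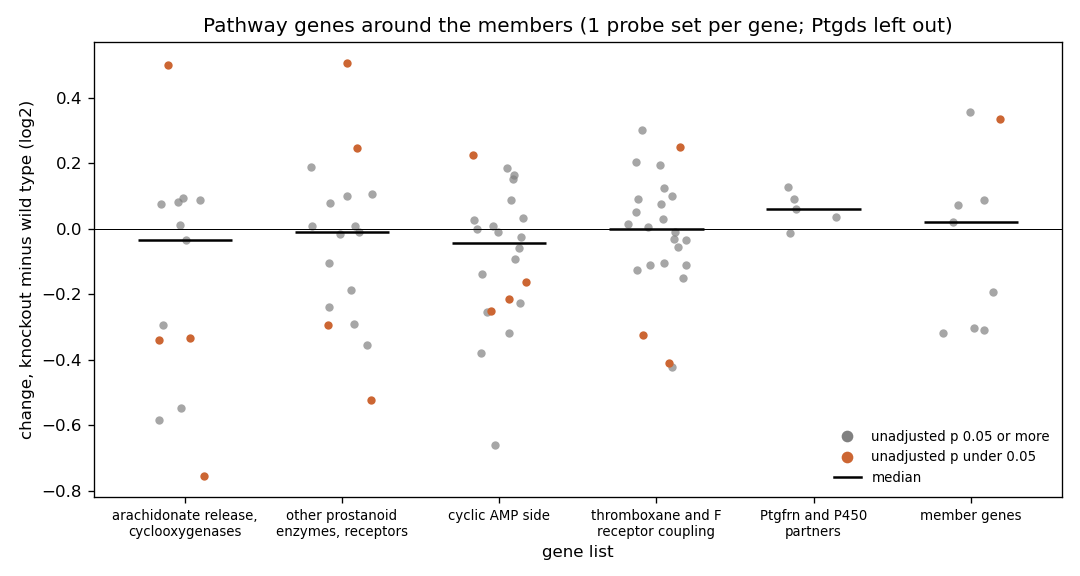
Difference in log2 expression, knockout minus wild type, of each tested pathway gene by list and of the 9 member genes, 1 probe set per gene; orange points have an unadjusted p under 0.05, bars are medians, and Ptgds is left out. Medians lie between −0.043 and 0.060, and every point shown has an adjusted p above 0.05.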

How the data were processed

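Arrays of 9 aortas (4 wild type, 5 knockout) were compared; the empty column of wild type replicate 2 was not used. The submitters' processing notes name GCRMA (version not stated), so the log2 values deposited are the authors' GCRMA output, a method that corrects background, normalizes across arrays and summarises each probe set. The log2 scale was inferred from values between 1.75 and 14.81 on every array, since the labels give no scale for the deposited values. They were not rescaled.

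Of 45101 probe sets, 932 with several genes and those with none were left out. Probe sets over log2 4 on at least 4 arrays were tested (26504) with limma 3.58.1 in R 4.3.3, 2 groups without covariate, Benjamini-Hochberg adjusted over all of them. Single measures were compared by exact two-sided permutation. A gene in a list was represented by its brightest probe set. The number of arrays limits the precision. The procedure was tested on simulated data. Named were Ptgds, every member probe set, the 3 genes with the smallest p in each pathway list, and the 2 nearest genes of each member; Ptgs2, the G protein genes, Itga2b and single endothelial markers were added after their values were seen. Members and lists were chosen with earlier results of these data known.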

Additional observations from a re-analysis of the deposited data

Results flagged for a closer look

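In 38 sets of 4 or 5 arrays (19 probe sets of the members and Ptgds, 2 genotypes each), 1 array stood apart by its gap to the nearest other. Knockout replicate 5 was the highest of 5 on probe set 1449828_at of Ptgfr, at 2.86 against 2.73 for the next, a gap of 0.738 of the group's range where 0.71 is the critical value. Chance alone flags about 1 in 20 such sets, and this probe set lies below the floor of 4 on all arrays.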

How the results depend on the processing

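The count of members past the test was 0 under every alternative run, and 286 of 313 alternative values for the tested member probe sets kept their direction and side of the threshold. Of the rest, 26 changed sign, and Tbxa2r passed only by the unadjusted exact test. Of 48 values for the 3 untested probe sets, 6 changed sign, all of Ptgfr 1440777_x_at (−0.059 to 0.23 with 1 array left out). Over all probe sets the count of 21 became 8 with the brightest probe set per gene, 66 with trend and robust options, 367 with array weights, 5 with adipocyte and 5 with smooth muscle markers as covariates, 2 with endothelial and 12 with neuron markers (both added after seeing the data), 6 without the 2 arrays richest in neuron transcripts, and 6 to 1673 with 1 array left out. Pathway genes past the test, 1 in the report, were 2 with array weights and 1 to 6 with 1 array left out. With the replicate number as a block, a fit without knockout replicate 2, the counts were 1 over all probe sets and 0 for pathway genes. Probe set 1423859_a_at of Ptgds stood at −5.30 there (adjusted p 0.0911, limma). Deviations of same-numbered arrays correlated at −0.27 to 0.15 in 4 pairs, and those of other pairs at −0.50 to 0.59. The first range lies inside the second, so these correlations cannot decide whether the numbers pair the arrays. Probe set 1423860_at of Ptgds, which did not pass in the report, passed with array weights (−1.54), by the unadjusted exact test (−1.80) and without wild type replicate 1 or 5, but not without any other single array (−2.15 to −1.45 over all 9).

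Signs turned for probe sets of Ptgfr, Ptgfrn and Slco2a1. Ptgfr 1420349_at was −0.032 with array weights, −0.056 with the neuron covariate, −0.00065 with the block and −0.049 without the 2 neuron-rich arrays, and −0.050 to 0.35 with 1 array left out. Ptgfr 1453924_a_at ran from −0.11 to 0.35 on leaving out 1 array. Ptgfrn 1434891_at was −0.0039 with array weights, −0.0051 with the smooth muscle and −0.024 with the neuron covariate, −0.028 without the neuron-rich arrays, and −0.034 to 0.12 with 1 left out. Ptgfrn 1421319_at was −0.023 with the adipocyte and −0.065 with the neuron covariate, −0.014 with the block, −0.088 without the neuron-rich arrays, and −0.081 to 0.15 with 1 left out. Other alternatives moved these probe sets upward. The highest value over all alternatives was 0.62 for Ptgfr 1420349_at and 0.50 for Ptgfr 1453924_a_at. It was 0.22 for Ptgfrn 1434891_at and 0.41 for Ptgfrn 1421319_at. Slco2a1 1444242_at ran from −0.45 to 0.046, and with the endothelial covariate the 3 tested probe sets of Slco2a1 were 0.27, 0.032 and 0.45. Ptgir minus Tbxa2r was −0.029 without the neuron-rich arrays and −0.076 to 0.099 with 1 left out. The cause of these changes was not tested.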
